A study of Mus musculus with 23 samples.

Results

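The transcriptomes of primary mouse embryonic fibroblasts (MEFs) carrying one or the other of a pair of single point mutations of the glucocorticoid receptor (GR) were compared with each other. In GRL/L cells an isoleucine of the ligand-binding domain is replaced by alanine, and in GRD/D cells an alanine of the DNA-binding domain, where receptor molecules touch, is replaced by threonine. All libraries of these genotypes were taken, that is 6 of GRL/L and 5 of GRD/D, together 11 of the 23 libraries of the series. The GRL/L libraries were 3 after 10 nM dexamethasone (Dex) for 5 h and 3 after solvent (vehicle), and the GRD/D libraries were 3 after Dex and 2 after vehicle. Both genotypes were homozygous and on the FVB/NJ strain, and the other libraries came from the unmodified receptor (GRwt/wt) and from cells with both changes (GRD+L/D+L). Per the labels, a genotype had 3 cultures and each came from another mouse. The fibroblasts were prepared from mid-gestation embryos without head and organs and so are a mixed primary population. The L allele was made by CRISPR/Cas9 editing of zygotes and the D allele is an older targeted line, and since all libraries of a genotype came from one mouse line, genotype and line cannot be told apart.

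GR is a nuclear receptor that binds glucocorticoids in the cytoplasm, moves to the nucleus and activates genes as a dimer on palindromic response elements, or modulates other transcription factors. Fibroblasts respond to it with a small set of genes such as Fkbp5, Per1 and Tsc22d3. Embryonic fibroblasts also differ with the body region, the accompanying cell types and the culture conditions, which show in patterning, matrix, metabolic and lineage marker genes.

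Totals of the libraries were 17948991 to 21070323 counts, and 19489 to 20155 genes had at least 1 count. The receptor gene Nr3c1 was measured first. In Dex-treated GRD/D cultures it had 96.2, 92.7 and 90.1 CPM (counts scaled to a common library total), and in Dex-treated GRL/L cultures 135, 138 and 130.5. With vehicle the values were 107 and 105 CPM in GRD/D and 136, 133 and 138 in GRL/L. Every GRL/L library was thus above every GRD/D library, by a log2 fold change (LFC) of 0.51 ± 0.05 (SE) with Dex (edgeR adjusted p = 0.00089), which is under the fold threshold. A point mutation does not show in gene counts, so these values do not test the genotype labels.

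The first principal component of the 11 libraries held 49.2% of the variance and separated the genotypes, and the second held 17.6%. Spearman correlations of log2 CPM were at least 0.984 within GRL/L and 0.982 within GRD/D, against 0.964 to 0.978 between genotypes. Dex and vehicle libraries of GRL/L with the same number lay side by side. In GRD/D this held for number 1, but vehicle 2 lay beside Dex 3. GRD/D Dex 2 had 7026 Xist counts and 0 counts of the Y-linked Ddx3y, whereas GRD/D vehicle 2 had 1 and 1738. These libraries with the number 2 therefore cannot be from the same embryo, and the main comparisons did not use the numbers of GRD/D to join libraries into cultures. The numbers entered only alternative fits with a block and, for number 1, the ranges between cultures. The genotypes were compared within the Dex libraries, 3 against 3, with the vehicle libraries as a second comparison. Dex and vehicle libraries of a culture are not independent, so the second comparison does not replicate the first.

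**Figure D1:**
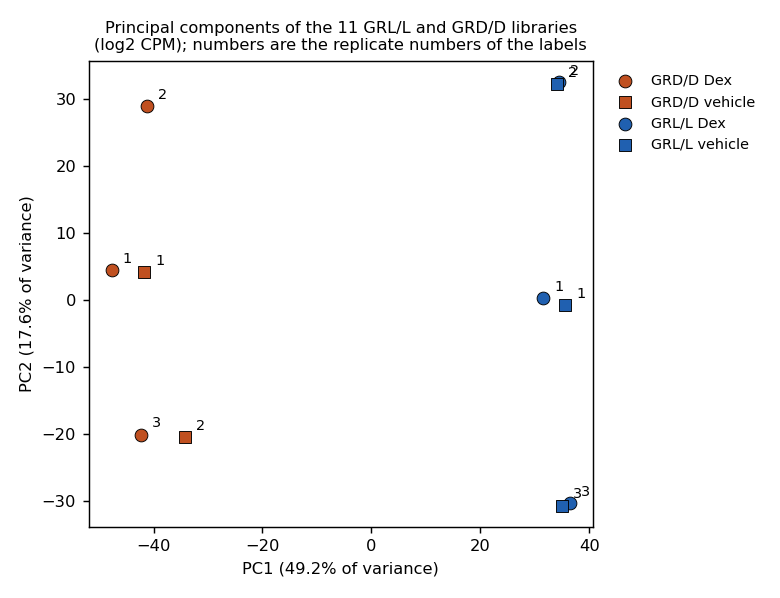
Principal components of log2 CPM over 15081 genes for the 11 libraries, with PC1 on the x axis, PC2 on the y axis, colour for genotype, shape for treatment and the replicate number of the labels beside each point. GRD/D and GRL/L separate on PC1, and GRD/D vehicle 2 lies beside GRD/D Dex 3.

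With Dex, 1034 of 14218 genes tested (7.27%) were called, that is, had an edgeR adjusted p no larger than 0.05 together with a change of 1 or more on the log2 scale. Of these, 630 (4.43%) were higher and 404 (2.84%) were lower in GRL/L. With vehicle, 934 of 14602 genes (6.40%) differed, 573 higher (3.92%) and 361 lower (2.47%). The higher genes shared 376 members, which is 59.7% of the Dex set and 65.6% of the vehicle set, and the lower genes shared 248, 61.4% and 68.7% of the sets. Of 1013 genes that were called with Dex and tested with vehicle, 1005 had the same sign. A fit over all 11 libraries with treatment as a covariate, which counts the libraries of a culture as independent, called 1374 of 14724 genes (9.33%). The Dex count was 659 when the spread was estimated from the Dex libraries of all 4 genotypes. The vehicle count rests on 2 GRD/D libraries and was 374 without GRD/D vehicle 1, 572 without GRD/D vehicle 2 and 602 without GRL/L vehicle 1.

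**Figure D2:**
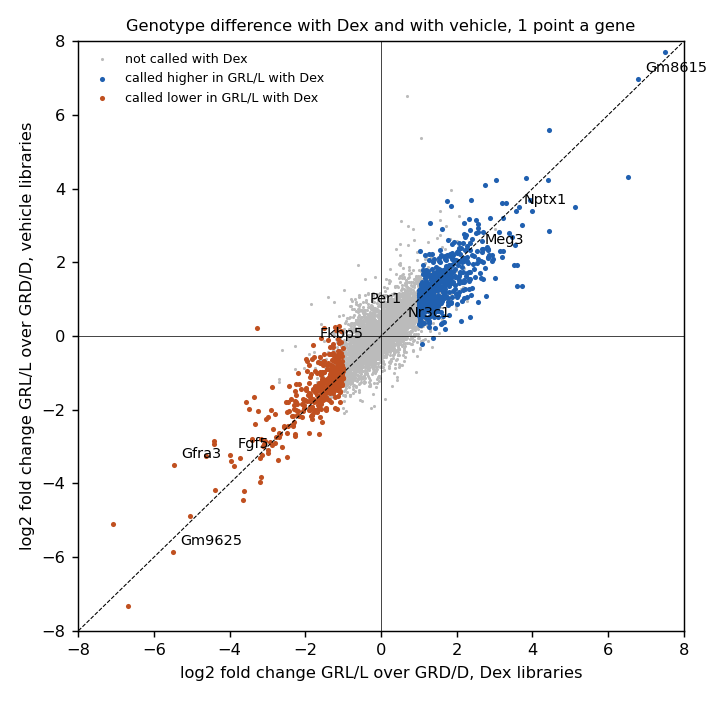
Log2 fold change of GRL/L over GRD/D for each gene tested in both comparisons, Dex libraries on the x axis and vehicle libraries on the y axis, with genes called in the Dex libraries in colour. Of the 1013 called genes tested in both, 1005 lie on the same side of 0, and Fkbp5 and Per1 lie off the dashed line of equality.

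The called genes of glucose metabolism were lower in GRL/L. Of 38 tested genes of glycolysis and the hypoxia response, 16 were lower and 0 higher with Dex, beside 2.84% of all genes lower, with a median LFC of -0.82 against -0.02 over all genes. With vehicle 19 of 38 were lower and 0 higher, and with the spread of all 4 genotypes 16 were lower with Dex. The called members had an LFC between -3.40 and -1.08. Aldoc encodes the aldolase that is abundant in brain. It had 14.3, 22.4 and 11.9 CPM in GRD/D with Dex and 1.5, 1.66 and 1.49 in GRL/L, an LFC of -3.40 ± 0.27 (SE) (adjusted p = 0.000637). The lactate exporter gene Slc16a3 had 42.2, 34.3 and 33.1 CPM in GRD/D and 8.72, 7.19 and 10.3 in GRL/L (-2.08 ± 0.16 (SE), adjusted p = 0.000622). Both genes had 3 GRL/L libraries far under the lowest GRD/D library. The abundant glycolytic enzyme genes moved less in fold. Enolase Eno1 had 616, 471 and 584 CPM in GRD/D and 184, 155 and 218 in GRL/L (-1.60 ± 0.15 (SE), adjusted p = 0.000939). Phosphoglycerate kinase Pgk1 had 341, 245 and 291 CPM in GRD/D and 95, 83.6 and 116 in GRL/L (-1.59 ± 0.16 (SE), adjusted p = 0.000986). The Eno1 count is uncertain because the near-identical Eno1b, whose LFC was -1.68, can take part of its reads. Summed over the list, GRD/D libraries held 7141 to 9275 CPM and GRL/L libraries 3689 to 4374. The 3 GRwt/wt Dex libraries held 5455 to 8198, the 3 GRwt/wt vehicle libraries 8721 to 10435 and the GRD+L/D+L libraries 4497 to 5369, so the GRL/L range lay below the ranges of the other genotypes.

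Because these genes moved together, their promoters are shown, from 250 bases before to 50 after the start of the gene (RefSeq, GRCm38.p6, all on the + strand). Capitals mark the hypoxia response core, ACGTG or GCGTG, on either strand. The windows are chr11:78322823-78323122 for Aldoc (the upstream one of its 2 starts), chr11:120948817-120949116 for Slc16a3, chrX:106186850-106187149 for Pgk1 and chr4:150236458-150236757 for Eno1 (the upstream one of its 3 starts).
Aldoc: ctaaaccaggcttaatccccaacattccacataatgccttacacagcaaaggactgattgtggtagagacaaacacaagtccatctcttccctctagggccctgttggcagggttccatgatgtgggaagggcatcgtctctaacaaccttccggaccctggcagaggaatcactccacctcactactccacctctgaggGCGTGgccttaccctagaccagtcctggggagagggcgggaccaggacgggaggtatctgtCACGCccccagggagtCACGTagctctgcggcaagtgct
Slc16a3: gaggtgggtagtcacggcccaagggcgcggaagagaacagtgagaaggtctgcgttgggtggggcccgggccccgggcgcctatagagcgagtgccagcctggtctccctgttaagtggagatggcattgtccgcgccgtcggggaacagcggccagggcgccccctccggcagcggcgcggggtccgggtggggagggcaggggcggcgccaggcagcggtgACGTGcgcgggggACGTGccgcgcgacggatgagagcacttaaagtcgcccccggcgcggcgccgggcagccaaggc
Pgk1: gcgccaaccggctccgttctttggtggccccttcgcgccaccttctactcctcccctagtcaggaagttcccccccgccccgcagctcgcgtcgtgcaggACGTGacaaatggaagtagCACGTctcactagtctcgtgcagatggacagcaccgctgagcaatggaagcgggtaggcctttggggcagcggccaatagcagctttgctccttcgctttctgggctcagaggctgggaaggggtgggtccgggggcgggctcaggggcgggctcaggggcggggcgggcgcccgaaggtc
Eno1: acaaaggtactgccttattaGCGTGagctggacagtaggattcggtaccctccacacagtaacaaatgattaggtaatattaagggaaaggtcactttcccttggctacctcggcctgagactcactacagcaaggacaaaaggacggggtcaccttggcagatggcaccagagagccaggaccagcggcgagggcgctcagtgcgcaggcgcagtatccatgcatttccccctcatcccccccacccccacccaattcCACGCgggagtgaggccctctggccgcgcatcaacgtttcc
The core occurred in 3 places in the Aldoc window and in 2 in each of the others. Of the 16 lower genes 15 had a RefSeq promoter, and 14 of these (93.3%) held the core in at least 1 window, against 17 of 20 matched list members (85%) that were not called lower. Counted by window, the shares were 19 of 22 (86.4%) and 20 of 29 (69.0%), where several windows of a gene can overlap. The core was also in 6 of 7 matched cholesterol genes called lower (85.7%) and in 8 of 15 matched ones not called lower (53.3%). It was in 67.3% of all tested genes with a promoter and 46.7% of all genes with one. It is thus a common sequence. A match is a description of the letters and not a measured binding site.

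The called genes of lipid synthesis were lower in GRL/L too. Of 32 tested genes of cholesterol and fatty acid synthesis, 14 were lower and 0 higher with Dex, and 31 had a negative LFC (median -0.97). With vehicle 13 were lower and 0 higher, where 2.84% of all genes were lower with Dex and 2.47% with vehicle. Msmo1 encodes an enzyme of sterol demethylation. It had 134, 145 and 119 CPM in GRD/D with Dex and 34.1, 70.8 and 34.3 in GRL/L (-1.54 ± 0.28 (SE), adjusted p = 0.00573). Nsdhl, which acts in the same part of the pathway, had 94.7, 83.2 and 77.7 CPM in GRD/D and 26.8, 41.5 and 25.9 in GRL/L (-1.46 ± 0.18 (SE), adjusted p = 0.00169). GRL/L library 2 was the highest of its genotype for both genes but stayed under the lowest GRD/D library. The cholesterol transfer protein gene Stard4 had an LFC of -1.77 and the farnesyl diphosphate synthase gene Fdps -1.51. The count of lower members was 2 with the spread of all 4 genotypes. Summed levels were 3653 to 4247 CPM in GRD/D, 2016 to 2955 in GRL/L and 2056 to 2747 in GRD+L/D+L. With Dex, libraries of GRwt/wt spread from 2019 to 5960, and they lay between 4480.4 and 5744 with vehicle, above every GRL/L library.

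Most subunits of oxidative phosphorylation and most cytosolic ribosomal protein genes had a negative LFC, without passing the thresholds. Of 77 oxidative phosphorylation genes, 75 had a negative LFC (median -0.45) and 2 were called lower, Ndufa4l2 (LFC -3.20) and Cox7a1 (-1.87), a share of 2.60% beside 2.84% of all genes. Of 80 ribosomal protein genes, 78 had a negative LFC (median -0.34) and 0 were called in either direction. Both lists were made from gene symbols, so a member such as Ndufa4l2 need not be a subunit. With vehicle the medians were -0.37 and -0.24. With Dex they stayed between -0.47 and -0.42 and between -0.37 and -0.29 under RLE and upper-quartile scaling, DESeq2, the spread of all 4 genotypes, sex as a covariate and the leaving out of each library. The 3242 protein-coding genes with the shortest span had a median LFC of -0.19. In the same settings the median over all tested genes stayed between -0.03 and 0.01.

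Contractile and myofibroblast genes had 10 of 28 tested members lower and 0 higher with Dex (median LFC -0.66), and 9 of 27 lower and 0 higher with vehicle, beside 2.84% and 2.47% of all genes lower. Tagln encodes transgelin, a smooth muscle actin-binding protein. It had 1130.0, 922 and 1198 CPM in GRD/D with Dex and 392, 473 and 362 in GRL/L (-1.42 ± 0.14 (SE), adjusted p = 0.000913). The smooth muscle gamma-actin gene Actg2 had 101, 65.2 and 89.1 CPM in GRD/D and 28.4, 27.7 and 22.6 in GRL/L (-1.71 ± 0.17 (SE), adjusted p = 0.000983), and calponin Cnn1 had an LFC of -1.65. No GRL/L library reached a GRD/D library for these genes. Ccn2, the connective tissue growth factor gene, was lower in GRL/L with Dex (LFC -1.52), while its vehicle LFC of -0.69 was under the fold threshold. The summed level was 10591 to 11884 CPM in GRD/D and 6996 to 8028 in GRL/L. In GRD+L/D+L it ran from 6397 to 12889 CPM, across the ranges of both. With Dex, GRD/D held 10987 to 11884, GRL/L 6996 to 7799 and GRwt/wt 5044 to 14955 CPM. With vehicle, GRwt/wt held 10733 to 18875 CPM, above every GRL/L vehicle library (7012 to 8028). With the spread of all 4 genotypes 2 members were called lower.

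**Figure D3:**
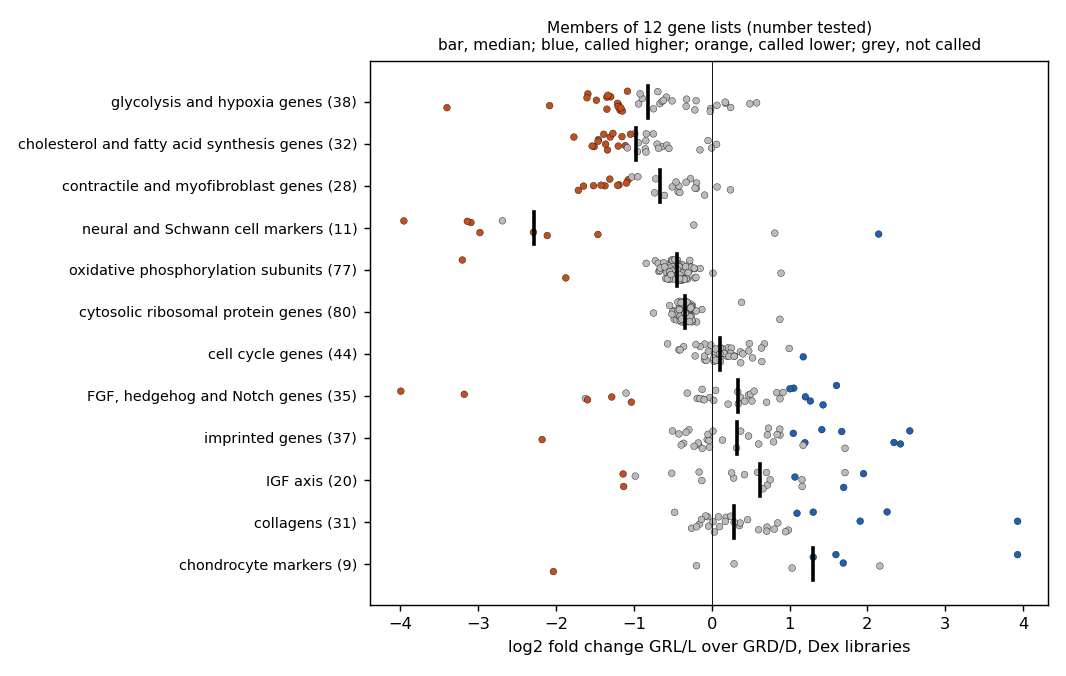
Log2 fold change of GRL/L over GRD/D in the Dex libraries (x axis) for each tested member of 12 gene lists (y axis, number tested in brackets), with a bar at the median and colour for called genes. Glycolysis, cholesterol, contractile and neural members lie mostly below 0, and ribosomal and oxidative phosphorylation genes form tight clusters around -0.34 and -0.45.

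Several markers of neural crest and Schwann cells were lower in GRL/L. Of 11 tested markers, 7 were lower with Dex and 1 was higher, with a median LFC of -2.29, and with vehicle 6 of 12 were lower and 0 higher. Over all genes 2.84% were lower with Dex and 2.47% with vehicle. Sox10, a transcription factor of the neural crest and its glia, had 16.2, 29.4 and 35.5 CPM in GRD/D with Dex and 3.38, 1.27 and 5.74 in GRL/L (-2.98 ± 0.50 (SE), adjusted p = 0.00445). The neuregulin receptor gene Erbb3 had 14.9, 31.9 and 29.8 CPM in GRD/D and 2.44, 1.44 and 5.21 in GRL/L (-3.09 ± 0.48 (SE), adjusted p = 0.00335). Foxd3, a neural crest transcription factor, had 5.66, 12.9 and 14.7 CPM in GRD/D and 0.656, 0.166 and 1.33 in GRL/L (-3.95 ± 0.62 (SE), adjusted p = 0.00335). For all of these the groups did not overlap. Sox2 was lower as well (LFC -3.14), whereas the neurofilament gene Nefm was higher (LFC 2.14). Leaving out a library ended the Nefm call in 4 of 6 fits and the Sox2 call in 2. The levels varied within GRD/D too, where culture 1 was the lowest for all 3 genes, and in GRwt/wt with Dex Sox10 was at 6.92, 23 and 7.3 CPM and in GRD+L/D+L at 9.13, 0 and 2.18. In bulk RNA fewer cells of a type and less RNA per cell cannot be told apart. The list is summed at 123 to 234 CPM in GRD/D and 82.3 to 163 CPM in GRL/L, and these ranges overlap. With the spread of all 4 genotypes 2 markers were called lower.

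Macrophage markers were detected in every library and varied between cultures within a genotype. Their summed level was 345 to 2168 CPM in GRD/D and 384 to 961 in GRL/L. Of 21 tested markers, 1 (Itgam) was lower with Dex and 0 higher, with a median LFC of -0.60 that became 0.37 without GRD/D Dex 2, the library with the highest level. With vehicle 0 of 22 differed and the median was 0.30. Markers of other lineages were called in short lists of 3 to 11 tested genes, beside 7.27% of all genes. In the endothelial list 1 of 7 was higher (Tek), in the epithelial list 1 of 3 lower (Krt7), in the skeletal muscle list 1 of 4 lower (Acta1, LFC -2.27) and in the mesothelial list 0 of 6, of which 2 were higher with vehicle. Among pericyte markers 1 of 6 was higher and 3 lower, and among osteoblast and adipocyte markers 1 of 4 and 1 of 11 were lower. Tek, Krt7, Itgam and the osteoblast marker Spp1 each lost the call in 5 of the 6 fits that left out a library and with the spread of all 4 genotypes. With that spread Acta1 lost the call too and the pericyte count of lower markers was 1. The adipocyte call was lost without GRD/D Dex 2. None of the 11 erythroid markers passed the filter on low counts. The fibroblast marker list had 1 of 15 members lower, S100a4 (LFC -1.66), with a median of -0.05. The part of other cell types in the differences between the genotypes was not tested.

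The genes higher in GRL/L included 4 imprinted genes of the Dlk1-Meg3 region on chromosome 12. The list of imprinted genes had 7 of 37 members higher and 1 lower with Dex, and 12 of 37 higher and 1 lower with vehicle, beside 4.43% and 2.84% of all genes with Dex and 3.92% and 2.47% with vehicle. Meg3, a maternally expressed long noncoding RNA, had 196, 236 and 294 CPM in GRD/D with Dex and 1316, 1700.0 and 1274 in GRL/L (2.54 ± 0.18 (SE), adjusted p = 0.000609). With vehicle it had 250.1 and 337 CPM in GRD/D and 1528, 1836 and 1067 in GRL/L. The paternally expressed Dlk1, which encodes a transmembrane protein of the Notch ligand type, had 75.2, 199 and 61.4 CPM in GRD/D and 696, 718 and 307 in GRL/L (2.34 ± 0.52 (SE), adjusted p = 0.0117). Rtl1 (LFC 2.42) and the microRNA host Mirg (LFC 1.67) of the same region were higher as well, so genes expressed from either parental chromosome were raised. In GRwt/wt with Dex, Meg3 was at 321, 209 and 190.0 CPM and Dlk1 at 443, 315 and 177 CPM. Every one of these Meg3 values was under every GRL/L library, and the Dlk1 values spread from within the GRD/D range into the GRL/L range. H19, Airn and Peg10 were the other higher members. The imprinted gene that was lower was Ddc, aromatic amino acid decarboxylase (LFC -2.18).

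The insulin-like growth factor axis had 3 of 20 members higher and 2 lower with Dex, beside 4.43% and 2.84% of all genes. Igfbp5, a secreted binding protein, had 542, 1302 and 849 CPM in GRD/D and 2787, 2715 and 3325 in GRL/L (1.70 ± 0.30 (SE), adjusted p = 0.00493). Igf1 itself had 97.5, 158 and 81.2 CPM in GRD/D and 231, 259 and 226 in GRL/L (1.07 ± 0.23 (SE), adjusted p = 0.0102). The protease gene Pappa, which cleaves binding proteins, went the other way (LFC -1.14). Stanniocalcins, inhibitors of that protease, moved apart, with Stc1 at an LFC of 1.95 and Stc2 at -1.13. With the spread of all 4 genotypes 2 were higher and 0 lower, so Pappa and Stc2 lost the call. The lower count was 1 without GRD/D Dex 1 or GRL/L Dex 1 and 3 without GRD/D Dex 2, and the higher count was 2 without GRD/D Dex 1 or 3. Pappa lost the call in 3 and Igf1 in 2 of the 6 fits that left out a library.

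Growth factor signalling genes were called in both directions, beside 4.43% higher and 2.84% lower over all genes. In the list of FGF, hedgehog and Notch genes, 6 of 35 were higher and 5 lower. The lower count was 2 without GRD/D Dex 2 and 3 without GRD/D Dex 3, GRL/L Dex 1 or GRL/L Dex 2, and Notch4 lost the call in 5 and Hey1 in 4 of the 6 fits that left out a library. The higher members included 3 that report FGF signalling, Spry4 (LFC 1.60), Etv5 (1.43) and Etv4 (1.27). Spry4 had 9.26, 6.5 and 10.8 CPM in GRD/D with Dex and 32.3, 25.5 and 23.6 in GRL/L. The ligand Fgf5 was lower, with 5.66, 8.47 and 11.5 CPM in GRD/D and 0.281, 0.663 and 0.691 in GRL/L (-3.99 ± 0.41 (SE), adjusted p = 0.00107), as was the Notch target Heyl (LFC -3.18). Of 36 tested Wnt pathway genes, 2 were higher, the receptor gene Fzd4 (LFC 1.80) and the secreted antagonist Dkk2 (1.53), and 3 were lower, the feedback inhibitors Nkd2 (-1.64) and Nkd1 (-1.15) and the ligand Wnt9a (-1.18). On leaving out a library, Nkd1 lost the call in 5 of 6 fits, with an LFC from -1.42 to -0.61, and Dkk2 in 4 of 6, with 0.91 to 1.83. Of 34 BMP and TGF-beta family genes 0 were higher and 2 lower, among them the antagonist Fstl3 (LFC -1.56). The lower shares were 8.33% in the Wnt list and 5.88% in the BMP and TGF-beta list. The Wnt count was 3 higher and 1 lower without GRL/L Dex 3, and the BMP and TGF-beta count was 3 higher and 2 lower without GRD/D Dex 2 and 0 higher and 1 lower without GRD/D Dex 1 or with the spread of all 4 genotypes.

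Matrix genes were called in both directions. Collagens had 5 of 31 members higher and 0 lower, and other matrix genes 5 of 48 higher and 2 lower, beside 4.43% and 2.84% of all genes. With vehicle, 5 of 32 collagens were higher and 0 lower, and 8 of 48 other matrix genes were higher and 4 lower. The summed level of the other matrix genes was not higher in GRL/L, with 57979.6 to 71886 CPM in GRD/D and 57239 to 62278 in GRL/L with Dex, and 70192 to 70642 and 58683 to 62946 with vehicle. Col8a2 had 4.74, 11.7 and 5.15 CPM in GRD/D with Dex and 25.2, 20.1 and 37.1 in GRL/L (1.91 ± 0.39 (SE), adjusted p = 0.00851). Tenascin X (Tnxb) had an LFC of 2.02 and Ltbp4, a binding protein of latent TGF-beta, 1.33. The collagen count fell to 2 without GRD/D Dex 1 or 3, to 3 without GRL/L Dex 1 or 3 and to 1 with the spread of all 4 genotypes, and the count of other matrix genes rose to 10 without GRD/D Dex 2 and fell to 2 with that spread. The lower count of the other matrix genes was 5 without GRD/D Dex 2, 3 without GRD/D Dex 3 or GRL/L Dex 3, 1 without GRD/D Dex 1 or GRL/L Dex 1 or 2, and 0 with that spread. The cartilage collagen gene Col2a1 was called (LFC 3.93), but its GRL/L values of 2.48, 0.719 and 21.5 CPM overlapped the GRD/D values of 0.572, 0.738 and 0.271, and the call was lost in 5 of the 6 fits that left out a library. Of 9 chondrocyte markers 4 were higher and 1, Sox6 (LFC -2.03), was lower, and with vehicle 2 of 11 were higher and 0 lower. The higher count was 2 without GRD/D Dex 1, GRL/L Dex 1 or GRL/L Dex 3, and with the spread of all 4 genotypes 0 of 14 were called. Proteases and their inhibitors had 1 of 29 higher, Mmp16 (LFC 1.12), and 3 lower, among them the stromelysin gene Mmp10 (-1.83), each of which lost the call in 2 of the 6 fits that left out a library. With the spread of all 4 genotypes 0 were higher and 2 lower.

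Of 34 tested Hox genes, which set body position, 0 were higher and 1 lower, Hoxc9 (LFC -1.20). With vehicle 1 was higher and 3 lower, with RLE scaling or DESeq2 2 were higher, and without GRL/L Dex 3 the count was 2 higher and 0 lower. Without GRD/D Dex 2 it was 0 higher and 2 lower. Of 45 other patterning factors 3 were higher, Pax1 (LFC 3.03), Osr2 (1.20) and Tbx4 (1.06), and 1 was lower, beside 4.43% higher and 2.84% lower over all genes. The count of higher patterning factors was 2 to 7 when a library was left out, highest without GRL/L Dex 2, and 0 with the spread of all 4 genotypes. With DESeq2 it was 8 of 56. Tbx4 lost the call in 4 of the 6 fits that left out a library. Cell cycle genes had 1 of 44 higher and 0 lower with Dex, and 5 of 44 higher with vehicle. The Dex count was 0 without GRL/L Dex 2 or with the spread of all 4 genotypes and 3 without GRD/D Dex 2. No gene of the p53 and senescence list (24 tested), the antioxidant list (28 tested) or the metallothionein list (11 tested) was called in the Dex libraries. At an unadjusted p under 0.05, 6931 of all 14218 genes differed.

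Among protein-coding genes with at least 5 CPM in the higher genotype and no overlap of the libraries, the largest rises were in Nptx1, Arc and Ptchd1. The neuronal pentraxin gene Nptx1 had 1.26, 1.72 and 1.41 CPM in GRD/D with Dex and 23.4, 10.7 and 19.1 in GRL/L (3.57 ± 0.33 (SE), adjusted p = 0.00083). Arc, an immediate-early gene of neurons, had 1.83, 1.03 and 1.79 CPM in GRD/D and 15.1, 4.92 and 22.9 in GRL/L (3.20 ± 0.58 (SE), adjusted p = 0.00556). The next genes in order were Ptchd1 (LFC 2.97), the glypican gene Gpc2 (2.87), the homeobox gene Meox1 (2.87), the ephrin gene Efnb3 (2.84), the matrix gene Spon2 (2.76) and the neprilysin gene Mme (2.70). They were followed by keratocan Kera (2.67), R-cadherin Cdh4 (2.66), Tmtc1 (2.57), Angptl7 (2.55), the thyroid hormone deiodinase Dio2 (2.53), Sned1 (2.47) and Rtl1. The Mme and Tmtc1 calls were lost in 2 and 3 of the 6 fits that left out a library.

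Under the same conditions the largest falls were in Fgf5 and Foxd3, described above, and in Rgs8, a regulator of G protein signalling (LFC -3.62). Rgs8 had 9.09, 5.86 and 15.7 CPM in GRD/D with Dex and 1.08, 0.995 and 0.425 in GRL/L. Next came Ms4a4d (-3.41), Aldoc, the tetraspanin Tspan18 (-3.25), Ndufa4l2 (-3.20), Heyl, Erbb3, the adhesion gene Cadm4 (-3.07), the protocadherin Pcdh20 (-3.04), Klhl30 (-2.99), Ttyh1 (-2.98), Sox10 and the adhesion receptor Adgrg1 (-2.94). In Tspan18 the GRD/D level with Dex was 22.6, 21.9 and 21.1 CPM and with vehicle 7.73 and 10.6, while GRL/L held 1.69, 2.16 and 3.14 and 2.55, 1.94 and 2.27. All 30 of these rising and falling genes were chosen for CPM that do not overlap between the 6 GRL/L and 5 GRD/D libraries, so the separation itself is not a finding.

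**Figure D4:**
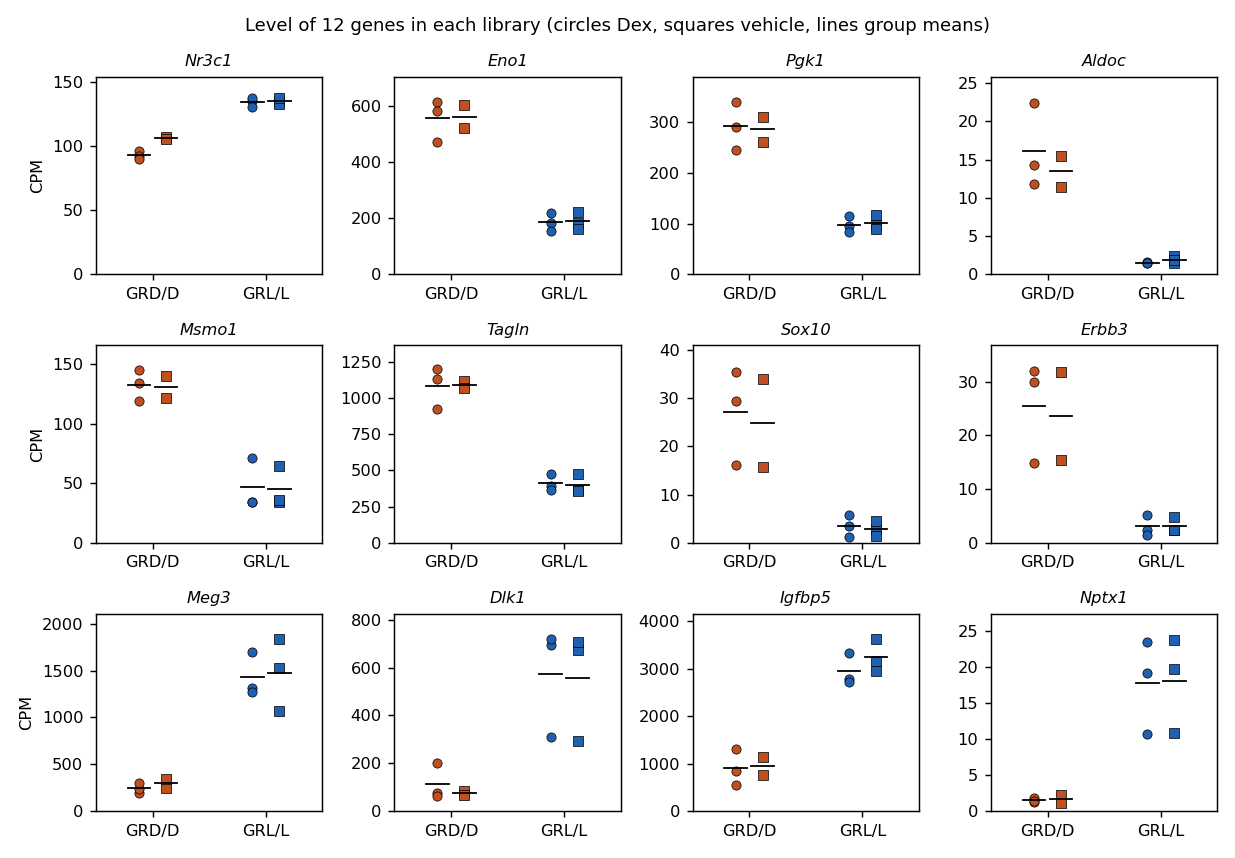
Level in CPM (y axis, from 0) of 12 genes in each of the 11 libraries by genotype (x axis), circles for Dex, squares for vehicle and lines for group means. The GRL/L and GRD/D values are apart for each gene, for example 155 to 221 against 471 to 616 CPM for Eno1 and 1067 to 1836 against 196 to 337 CPM for Meg3.

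Some noncoding genes were close to present in one genotype and absent in the other. The processed pseudogene Gm9625 had 111, 116 and 111 CPM in GRD/D with Dex and 2.77, 2.43 and 2.39 in GRL/L (-5.49 ± 0.08 (SE), adjusted p = 3.60e-07). GRwt/wt with Dex was at 3.74, 2.62 and 2.93 CPM, and GRD+L/D+L at 2.56, 92.7 and 85.2. Gm8730, another processed pseudogene, had 257, 268 and 268 CPM in GRD/D, 8.95, 8.02 and 7.12 in GRL/L, 17, 11.6 and 10.3 in GRwt/wt and 10, 215 and 202 in GRD+L/D+L. GRD+L/D+L culture 1 was thus low for both pseudogenes and cultures 2 and 3 were high. The GRwt/wt vehicle libraries had 5.62, 3.17 and 116 CPM of Gm9625 and 25.5, 15.3 and 256 of Gm8730, so the library labelled GRwt/wt vehicle 3 stood at the GRD/D level and apart from the other 5 of its genotype. It also held 6178 CPM of macrophage markers, against 23.9 to 130.2 in the others. The reverse held for the transcribed pseudogene Gm8615, which had 0, 0.246 and 0 CPM in GRD/D, 11.9, 11.7 and 8.13 in GRL/L and 12.7, 14.4 and 13.5 in GRwt/wt. Counts of pseudogenes depend on reads that may match a parent gene and are uncertain, and so are those of the multigene family members Serpina3h (LFC -2.87), Serpina3i (-2.56) and Serpina3e-ps (-2.34).

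Beyond Gm8615, the genes other than protein-coding ones with the largest rise were Gm38372 (LFC 3.83), Gm49599 (3.65) and Gm42664 (3.11). Gm38372 and Gm49599 are among the models to be experimentally checked that are counted below. They overlap Pcmtd1 (LFC 0.10) and Golgb1 (0.56) on the same strand. Pseudogenes were called in both directions, 18 higher and 21 lower of 336. Of 733 long noncoding genes 97 were higher and 21 lower. Of 159 gene models that GENCODE lists as to be experimentally checked, 56 (35.2%) were higher and 0 lower, while of 12965 protein-coding genes 455 (3.51%) were higher and 361 (2.78%) lower. Among the 88 such models that overlap another gene on the same strand 47 (53.4%) were higher, against 9 of 71 (12.7%) elsewhere. For 41 of the higher models a protein-coding gene on the same strand was tested. These models had a median LFC of 2.12, and the genes over them 0.09, with a range from -1.21 to 0.86. The share of counts in protein-coding genes moved with this, being 98.5 to 98.7% in GRD/D and 98.1 to 98.2% in GRL/L. Among protein-coding genes, the 3241 with the longest span had a median LFC of 0.14, and the 3242 with the shortest -0.19. The part of overlapping reads in these calls was not tested.

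Within 10 Mb of Nr3c1 on chromosome 18, 14 of 166 tested genes (8.43%) were called, 5 higher and 9 lower, and within 5 Mb 10 of 124 (8.06%). Over the autosomes the share called ran from 5.34% on chromosome 13 to 9.24% on chromosome 1, and it was 10.2% on the X chromosome. The sexes were not balanced, since the GRD/D Dex libraries were 2 female and 1 male and the GRL/L Dex libraries 1 female and 2 male, and the part of sex in the share on X was not tested. The window around the edited gene was therefore within the range of whole chromosomes. Gfra3, a receptor gene for neurotrophic factors, had 0.686, 2.26 and 2.44 CPM in GRD/D with Dex and at most 2 counts in each GRL/L Dex library, at least 10.8-fold lower when 3 counts in the smallest library are taken as the floor. Gpr17 (LFC -3.37), Stard4, Eno1b and Lims2 (-1.66) were lower and Ppp2r2b (2.58) was higher.

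Among genes that glucocorticoids are known to induce, 2 of 18 tested were higher and 2 lower in GRL/L with Dex, and 2 higher and 0 lower with vehicle, beside 4.43% and 2.84% of all genes with Dex. The higher count was 4 without GRL/L Dex 2, 1 without GRL/L Dex 1 or 3, and 0 with sex as a covariate or with the spread of all 4 genotypes. The lower count was 1 without GRD/D Dex 1 or GRL/L Dex 2, 3 without GRL/L Dex 3 or with sex as a covariate, and 1 with that spread, RLE scaling or DESeq2. Fkbp5, a co-chaperone of GR, had 32.5 and 31.1 CPM in GRD/D with vehicle and 118, 94.8 and 93.8 with Dex, while GRL/L had 25.3, 29.1 and 27.3 and 29, 30.5 and 29.4. The clock gene Per1 had 16.7 and 16.2 CPM in GRD/D with vehicle and 45.3, 42.3 and 38.1 with Dex, while GRL/L had 27.1, 26.5 and 27.9 and 31.5, 26.9 and 31.5. The Dex response was 1.68 ± 0.10 (SE) for Fkbp5 and 1.34 ± 0.10 (SE) for Per1 in GRD/D, and 0.13 ± 0.09 (SE) and 0.15 ± 0.08 (SE) in GRL/L. In the fit without a block, these were the genes of 15081 (0.0133%) whose response was called different between the genotypes, with a difference of -1.55 ± 0.13 (SE) for Fkbp5 (edgeR adjusted p = 0.00498) and -1.19 ± 0.13 (SE) for Per1 (adjusted p = 0.0172). At an unadjusted p under 0.05, 428 genes differed, DESeq2 called 5, and 15 were called with culture, by number, as a block. Leaving out either GRD/D vehicle library ended both calls, and Per1 was lost in 7 of the 11 fits that left out a library. With vehicle, Per1 was higher in GRL/L (LFC 0.70 ± 0.09 (SE)), under the fold threshold. Tsc22d3, which encodes GILZ, and the phosphatase gene Dusp1 had differences of -0.17 ± 0.22 (SE) and 0.19 ± 0.23 (SE), neither of which passed the test (adjusted p = 1.0 in both).

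**Figure D5:**
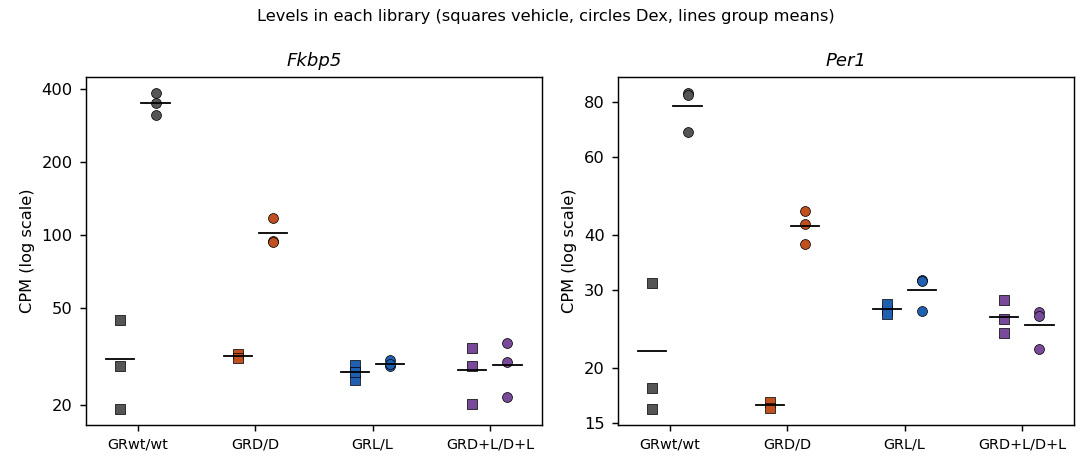
Fkbp5 and Per1 in CPM (log y axis) in each library of the 4 genotypes (x axis), squares for vehicle, circles for Dex and lines for group means. GRD/D rises with Dex from 31.1 and 32.5 to 93.8 to 118 CPM for Fkbp5, and GRL/L stays between 25.3 and 30.5.

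The other called members of this list had the same sign with and without Dex. Sgk1, a kinase gene, had 170.0, 123 and 143 CPM in GRD/D and 75, 68.6 and 74.8 in GRL/L with Dex, and 130.3 and 121 and 71.7, 68 and 69.7 with vehicle. Errfi1, a feedback inhibitor of EGF receptor signalling, was higher in GRL/L with Dex (LFC 1.18) and vehicle (1.29). Angptl4, an inhibitor of lipoprotein lipase, was higher with Dex (LFC 1.04) and at 0.58 with vehicle.

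The other genotypes, which did not enter the calls, were placed beside both. For each called gene the mean log2 CPM of a genotype with Dex was placed relative to the GRD/D and GRL/L means, and it could lie outside them. GRD+L/D+L lay nearer to GRL/L for 468 of 630 genes higher in GRL/L (74.3%) and for 353 of 404 lower genes (87.4%). It lay beyond the GRL/L mean for 125 of the higher and 194 of the lower genes, and beyond the GRD/D mean for 51 and 4. GRwt/wt lay nearer to GRD/D for 455 of the higher genes (72.2%) and for 216 of the lower genes (53.5%). It lay beyond the GRD/D mean for 153 of the higher and 58 of the lower genes, and beyond the GRL/L mean for 64 and 38. These shares are descriptions over 3 cultures a genotype and were not tested.

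Cultures of 1 genotype differed as well. The 4 protein-coding genes with the largest range between cultures, among those whose libraries of a culture differed by less than 1 on the log2 scale, were the Y-linked Ddx3y, Eif2s3y, Uty and Kdm5d in both genotypes, since male and female embryos occurred in each. The next genes, named after their values were seen, were in GRL/L the macrophage oxidase gene Cybb with a range of 4.17, highest in culture 1, and Col2a1 (4.12), the neural factor Pou3f3 (4.08) and Pax9 (3.76), all highest in culture 3. In GRD/D they were Cck (4.15, highest in culture 1) and the macrophage receptor gene Stab1 (3.72, highest in culture 2). There, culture 1 was the mean of Dex 1 and vehicle 1, and the other cultures were a Dex library each. The condition on libraries of a culture therefore acted on culture 1 only in GRD/D. With sex as a covariate, 1011 genes were called between the genotypes with Dex.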

How the data were processed

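RNA-seq of the 11 GRL/L and GRD/D libraries was analysed, within a table of all 23 libraries of the series. The deposited values are raw counts per Ensembl gene. According to the methods and labels, the authors prepared TruSeq libraries, mapped reads to mm10 (GRCm38) with HISAT2 2.1.0 and counted unique reads per gene with featureCounts 2.0.0. The annotation release and strandedness were not given in the sources used here, so counts of overlapping and antisense genes are uncertain. Of 55487 identifiers, 55227 had an entry in GENCODE M21, which gave symbols and gene types.

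Counts were fitted in R 4.3.3 with the edgeR 4.0.16 quasi-likelihood test, TMM scaling and filterByExpr, and adjusted p-values are by Benjamini-Hochberg over all genes tested. Calls needed an adjusted p no larger than 0.05 and a change of 1 or more on the log2 scale, the thresholds of the study. The fit was tested on simulated data. The planned fit on counts summed per culture was not run, since deviations from the group means correlated at -0.23 between GRD/D Dex 2 and vehicle 2. The other same-numbered pairs correlated at 0.31 to 0.69. The Dex libraries, 3 against 3, were used instead, as laid down for that case. CPM are TMM scaled over the 23 libraries.

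Named genes were the receptor and 3 of its targets, the 15 protein-coding and 4 other genes with the largest call in each direction, with CPM that do not overlap and a mean of at least 5 CPM in the higher genotype, up to 4 called genes a direction of each list, genes called in the response, 6 called genes near Nr3c1, and 4 genes a genotype that vary between cultures. Some genes that the rule names are not reported here. The members, lists and tests were chosen with earlier results of these data known. Alternatives were other scalings, filters and tools (DESeq2 1.42.0), blocks and leaving out each library. Totals of 17948991 to 21070323 counts limit precision for genes under 1 CPM. No 2 libraries of a group agreed within sampling noise. Columns of the other 12 libraries served only for levels and for the spread of all 4 genotypes.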

Additional observations from a re-analysis of the deposited data

Results flagged for a closer look

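The Dex response of Fkbp5 and of Per1 differed between the genotypes by a test of the difference itself, the interaction of genotype and treatment in edgeR. For Fkbp5 the response of GRL/L minus that of GRD/D was -1.55 on the log2 scale (adjusted p = 0.00498), where a negative value means a smaller response in GRL/L, and all 3 GRD/D Dex libraries were above both GRD/D vehicle libraries. For Per1 the difference was -1.19 (adjusted p = 0.0172), with the same order of the GRD/D libraries. Groups of 3 libraries or fewer were not searched for single outlying libraries.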

How the results depend on the processing

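With other scalings, no filter, DESeq2, a replicate block, a stricter filter and sex as a covariate, the count of genes called with Dex was 766 to 1240. It was 5464 by the adjusted p alone, 659 when the spread came from the Dex libraries of all 4 genotypes, and 869 to 1082 when a library was left out. With that wider spread the calls fell to 2 each for the contractile, neural, cholesterol and other matrix lists and to 1 for collagens, which were 3 with sex as a covariate. Leaving out a library gave ranges of 374 to 1040 genes with vehicle, 0 to 2 for the difference of the response, 2 to 5 collagens and 4 to 10 other matrix genes, 11 to 19 lower cholesterol genes, 16 to 17 lower glycolysis genes, 9 to 11 lower contractile genes, 6 to 8 lower neural markers and 5 to 10 higher imprinted genes. The difference of the response had 4 calls with no filter, 5 with DESeq2, 5 by the adjusted p alone and 15 with culture, by number, as a replicate block. The numbers pair samples in GRL/L and for number 1 of GRD/D, while the check of deviations failed for number 2 of GRD/D. Across genotypes they are only numbers, and a replicate block gave 1103 genes with Dex, 1006 with vehicle and 1465 over 11 libraries. Of 126 named genes called with Dex, 85 kept the call whichever library was left out. Dusp1, which was not called (LFC -0.02), changed sign to 0.00082 with RLE scaling, 0.00038 with no filter, 0.0093 with the stricter filter, 0.0035 with the wider spread, 0.016 with sex as a covariate, and to 0.039 without GRL/L Dex 1 or 2, with a range of -0.13 to 0.11 when a library was left out. The stricter filter (10 counts in every library), upper-quartile scaling, the adjusted p alone, the wider spread and the sex covariate had been planned for the summed cultures, and their use on the Dex libraries was chosen after seeing the data, as was the adjusted p alone for the response. The planned fit of summed cultures and its alternatives were not run. With 2 GRD/D vehicle libraries, the vehicle comparison and the difference of the response have less precision than the Dex comparison.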
